A study of Mus musculus with 2 samples.

Results

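Autophagy delivers cytoplasm, organelles and protein aggregates to the lysosome inside a membrane sac, the autophagosome. A kinase complex starts the process, a lipid kinase complex marks the membrane with phosphatidylinositol 3-phosphate (PI3P), transfer proteins and scramblases supply lipid, and ubiquitin-like conjugation systems attach ATG8 proteins to the growing membrane. Purkinje cells, the output neurons of the cerebellar cortex, are known from mouse genetics to degenerate when core genes of this pathway such as Atg5 or Atg7 are deleted in them. The 40 genes described here encode these steps together with cargo receptors, a tethering factor and a transcription factor of the pathway. They were chosen by name, with no threshold on measured values. All 40 were found among the 43346 named mouse genes of the deposited tables, of which 21474 are protein-coding.

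RNA-seq was made from 2 pools of 50 Purkinje cells each, collected by laser capture from 8-month-old wild-type C57Bl6 males (strain B6NCrl in the source name). There was 1 group with no treatment, no mutant and no other cell type, so the design gives levels, their spread between pools and the make-up of gene families, and no test between conditions. The labels give the pools 1 shared donor identifier and separate biosamples, so they may come from the same animal and their spread may be technical. They link a Smart-seq protocol for pool 2 only, and that of pool 1 is not known here.

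Pool 1 held 23830685 expected counts (estimated reads per gene) and pool 2 held 27907662. Markers of Purkinje cells were detected in 11 of 11 cases, with a median of 1295 TPM (transcripts scaled by length and library) in pool 1 and 1032 TPM in pool 2. The pools also held RNA of neighbouring cells. Markers of Bergmann glia and astrocytes were detected in 10 of 10 cases, with medians of 167 and 132 TPM in pools 1 and 2, and those of granule cells in 6 of 7 cases, with medians of 15.6 and 17.3 TPM. Markers of molecular layer interneurons were detected in 5 of 5 cases (medians of 9.83 and 8.89 TPM in pools 1 and 2), of oligodendrocytes in 7 of 7 (19.3 and 14.8 TPM), and of endothelial cells and pericytes in 5 of 6 (3.01 and 3.40 TPM). Microglial markers were detected in 5 of 8 cases, with summed levels of 40.7 TPM in pool 1 and 51.5 TPM in pool 2, and blood markers summed to 651 TPM in pool 1 against 2274 TPM in pool 2. The part of these cells in the levels below was not tested. In such pools, fewer cells of a type and less RNA per cell cannot be told apart.

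Nearly the whole pathway was present. Of the 40 genes, 38 had at least 1 TPM in both pools, the threshold used for detection, whereas 51.7% of all protein-coding genes passed it. The median of the 40 genes' mean TPM was 14.0, and that of the detected protein-coding genes was 12.3. Above or at that second value stood 22 of the 40. The levels ran over 4 classes, with 6 genes at a mean of 100 TPM or more, 18 between 10 and 100 TPM, 14 between 1 and 10 TPM, and 2 under 1 TPM. Together they took 3121 TPM in pool 1 and 3163 TPM in pool 2, or 0.364% and 0.388% of the counts of named genes.

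**Figure D1:**
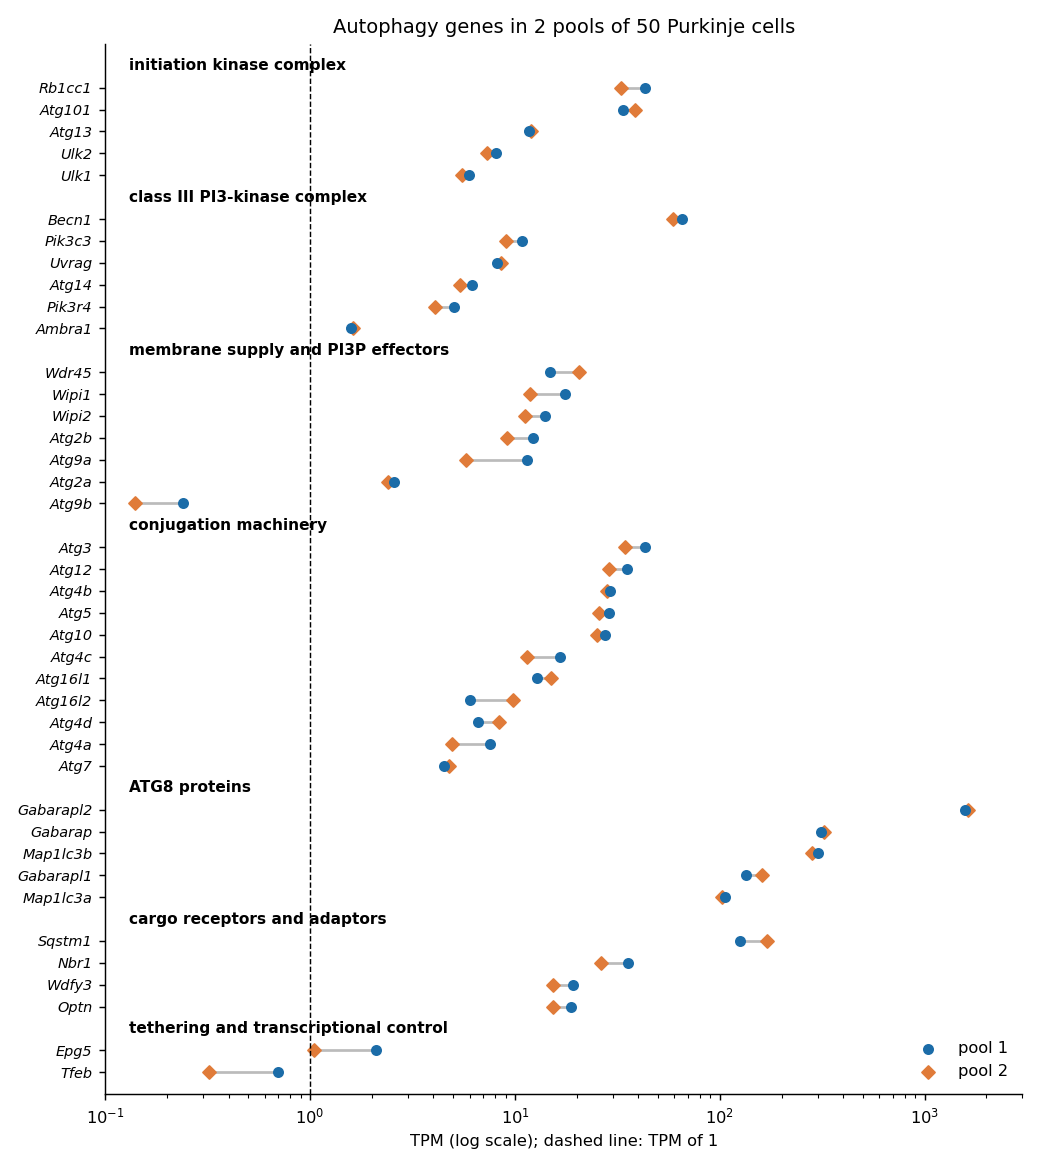
TPM of the 40 autophagy genes on a log axis, grouped by role, with circles for pool 1 and diamonds for pool 2, and a dashed line at 1 TPM. The 5 ATG8 genes and Sqstm1 lie above 100 TPM in both pools, and Tfeb and Atg9b lie left of the line.

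The 2 genes below detection were Tfeb and Atg9b. Tfeb encodes a transcription factor that switches on lysosomal and autophagy genes. It had 0.70 TPM in pool 1 and 0.32 TPM in pool 2, from 14 and 12 counts, with exact 95% Poisson intervals of 0.383 to 1.17 TPM and 0.165 to 0.559 TPM. The interval of pool 1 reaches past the threshold, so at this depth its level cannot be set apart from 1 TPM there. Atg9b, a paralog of the lipid scramblase gene Atg9a, had 0.24 TPM in pool 1 and 0.14 TPM in pool 2, from 18.2 and 7.37 counts. Its intervals, 0.141 to 0.376 TPM and 0.0535 to 0.274 TPM, stay below the threshold in both pools. All such intervals cover counting error only.

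The ATG8 proteins carried most of the RNA. These small ubiquitin-like proteins are joined to phosphatidylethanolamine on the autophagosome membrane and bind cargo receptors there. They form the LC3 subfamily (Map1lc3a, Map1lc3b) and the GABARAP subfamily (Gabarap, Gabarapl1, Gabarapl2). The 5 genes summed to 2428 TPM in pool 1 and 2493 TPM in pool 2, which was 77.8% and 78.8% of the summed TPM of all 40 genes.

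Gabarapl2, also known as GATE-16, stood far above the rest, with 1577 TPM in pool 1 and 1625 TPM in pool 2 (mean 1601 ± 34.2 TPM, SD, n = 2). It ranked 61 among all protein-coding genes, from 28222.5 and 36813.6 expected counts. Gabarap followed with 311 TPM in pool 1 and 324 TPM in pool 2, from 5181 and 6927 counts. The level of Gabarapl2 was thus several times that of any other member in each pool, and the pools barely differed. Map1lc3b, the LC3 form most used as an autophagosome marker, had 300.0 and 281 TPM in pools 1 and 2. Gabarapl1 had 135 TPM in pool 1 and 161 TPM in pool 2. Map1lc3a was the lowest of the family with 105 TPM in pool 1 and 102 TPM in pool 2, from 1695 and 2083 counts. Gabarap and Map1lc3b lay close together, at means of 318 ± 9.06 and 291 ± 13.2 TPM (SD, n = 2 each), and Map1lc3b was the higher by counts, with 11998 in pool 1 and 14698 in pool 2. The GABARAP subfamily made up 83.3% of the family's TPM in pool 1 and 84.6% in pool 2.

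The transcript estimates change how these levels read, because much of the TPM of Gabarapl2 and Map1lc3a was assigned to transcripts outside the protein-coding class. Gabarapl2 lies on chromosome 8 at 111940703 to 111953612 of GRCm38, plus strand. Gabarapl2-203, a transcript of 749 nt annotated as a retained intron, held 72.8% of the gene's TPM in pool 1 and 73.0% in pool 2. The protein-coding Gabarapl2-201, of 1677 nt, held 27.2% and 27.0%. By reads the pair was much closer, with 14810 and 19404 counts for Gabarapl2-203 in pools 1 and 2, and 13410 and 17398 counts for Gabarapl2-201. In TPM the shorter transcript weighs more for the same number of reads. In the annotation, Gabarapl2-203 lacks exon 1 and starts 92 bases before exon 2, inside the intron, and it ends 870 bases before the end of Gabarapl2-201. It shares the rest of its sequence with the coding transcript, so reads in the shared exons were divided between them by the authors' estimation.

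Map1lc3a was also led by a transcript outside the protein-coding class. Map1lc3a-203, of 826 nt and of the class processed transcript, held 70.9% of the gene's TPM in pool 1 and 70.1% in pool 2. The protein-coding Map1lc3a-201 held 29.1% and 29.9%. Map1lc3a-203 also lacks exon 1, starting 69 bases before exon 2, but it ends only 5 bases before the end of Map1lc3a-201. It led by counts too, with 1079 and 1307 in pools 1 and 2 against 616 and 776 for Map1lc3a-201. Gabarap differed: its leading transcript by TPM, Gabarap-202, is protein-coding and held 52.9% in pool 1 and 51.0% in pool 2. Gabarap-202 leaves out 94 bases at the start of exon 3 and has 318 annotated coding bases, and Gabarap-201, with 351, held 25.4% and 26.8%. The 94 bases are not a multiple of 3, so leaving them out does not keep the reading frame of Gabarap-201. The protein-coding class of Gabarap thus holds transcripts with different coding sequences. A retained-intron transcript, Gabarap-204, held 20.7% and 21.6%. Map1lc3b was nearly all protein-coding, at 99.5% of its TPM in pool 1 and 99.7% in pool 2.

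The stretches of sequence that set these transcripts apart are given below, as 60 bases of each transcript across the boundary that differs, 5′ to 3′, read from GENCODE M21 transcripts on GRCm38. For Gabarapl2 and Map1lc3a the lower case letters are the start of the shared exon 2, and the capitals are the 30 bases before it, which are the end of exon 1 in Gabarapl2-201 and Map1lc3a-201 and the end of the intron in Gabarapl2-203 and Map1lc3a-203. For Gabarap the lower case letters are the end of exon 2 and the capitals are the next 30 bases of each transcript. In Gabarap-201 these all lie in exon 3. Exon 3 of Gabarap-202 has only 25 bases, so its last capitals come from the exon after it. The Gabarapl2-203 stretch is continuous in the genome at chr8:111941130-111941189 and that of Map1lc3a-203 at chr2:155276928-155276987. The Gabarap stretches join bases ending at 69992443 on chromosome 11 to those starting at 69992582 in Gabarap-201 and at 69992676 in Gabarap-202.
Gabarapl2-201: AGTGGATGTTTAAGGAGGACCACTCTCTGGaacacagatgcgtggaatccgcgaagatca
Gabarapl2-203: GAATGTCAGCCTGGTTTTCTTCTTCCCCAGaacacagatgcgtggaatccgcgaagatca
Map1lc3a-201: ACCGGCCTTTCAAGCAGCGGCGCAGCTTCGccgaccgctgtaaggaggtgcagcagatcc
Map1lc3a-203: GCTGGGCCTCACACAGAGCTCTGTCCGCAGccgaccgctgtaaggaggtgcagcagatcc
Gabarap-201: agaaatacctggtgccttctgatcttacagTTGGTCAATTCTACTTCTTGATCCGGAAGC
Gabarap-202: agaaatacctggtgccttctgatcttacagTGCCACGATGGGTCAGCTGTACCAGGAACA
In Gabarapl2-203 and Map1lc3a-203 the capitals end in AG, the letters at the end of most introns.

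**Figure D2:**
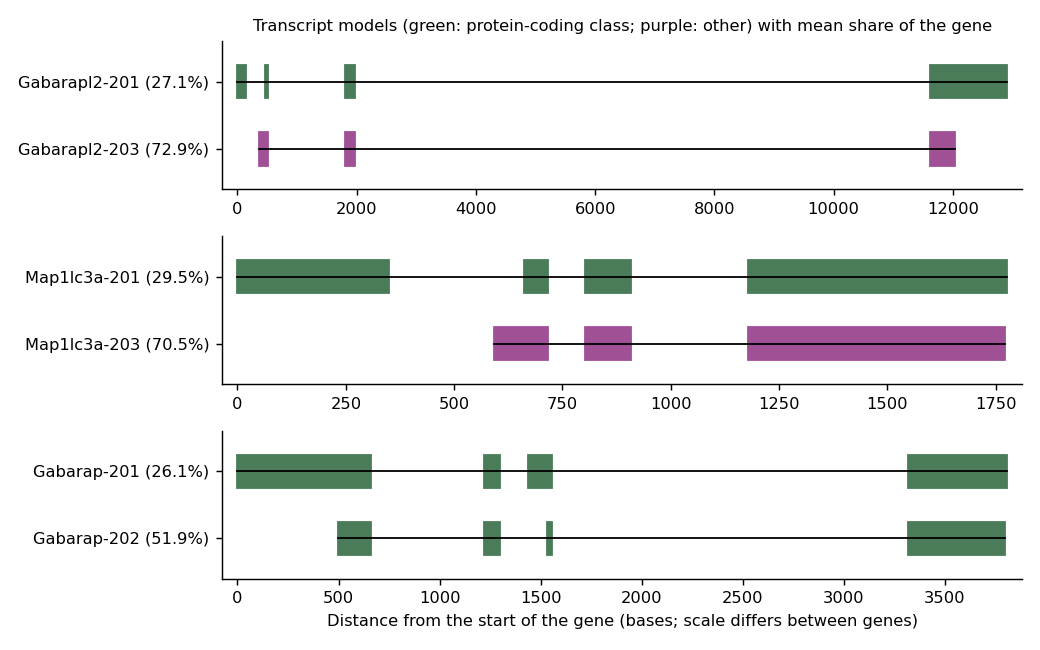
Exons (boxes) and introns (lines) of the leading transcripts of Gabarapl2, Map1lc3a and Gabarap by distance in bases from the start of the gene, green for the protein-coding class and purple for other classes, with the mean percent of the gene's TPM over both pools. Gabarapl2-203 and Map1lc3a-203 begin just before exon 2 and hold 72.9% and 70.5%.

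Counted on protein-coding transcripts alone, the family was more even. Gabarapl2-201 had 428 TPM in pool 1 and 438 TPM in pool 2, and its share of the family's coding TPM was 37.7%, against 65.1% ± 0.17 (SD, n = 2) of all TPM. The share of Gabarapl2 by counts, which are not corrected for length, was 54.7%. Gabarapl2 led the family on each of these scales. Next by protein-coding TPM was Map1lc3b, with 298 TPM in pool 1 and 281 TPM in pool 2, above Gabarap with 244 and 252 TPM. Most of this Gabarap level was Gabarap-202, at 165 TPM in both pools, and Gabarap-201 had 79.2 and 86.8 TPM in pools 1 and 2. By counts the pair was close. Gabarap-202, of 750 nt, had 2127 and 2707 counts in pools 1 and 2, and Gabarap-201, of 1351 nt, had 1967 and 2735. The GABARAP subfamily made up 71.0% of the coding TPM in pool 1 and 73.2% in pool 2. Within the LC3 subfamily, Map1lc3b took 73.7% of all TPM and 90.4% of the coding TPM.

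**Figure D3:**
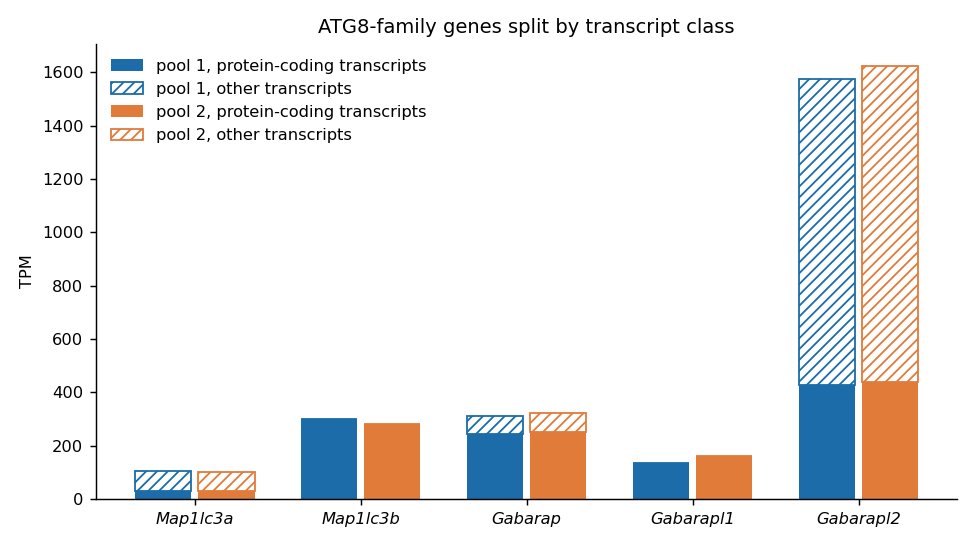
TPM of the 5 ATG8 genes in pool 1 (left bar of each pair) and pool 2 (right bar), filled for protein-coding transcripts and hatched for other transcripts. Gabarapl2 reaches 1577 and 1625 TPM in all, of which 428 and 438 TPM are protein-coding.

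Genes of the initiation kinase complex were all detected, between 5.74 and 38.0 TPM by mean. Rb1cc1 encodes FIP200, the scaffold of the complex, and had 43.0 TPM in pool 1 and 33.0 TPM in pool 2, from 2688 and 2675 counts. Atg101, which stabilises ATG13, had 33.5 and 38.3 TPM in pools 1 and 2, from 752 and 1091 counts. Both stood above the rest of the complex, Rb1cc1 being the higher in pool 1 and Atg101 in pool 2 by all TPM. Rb1cc1 had 25.1 TPM in protein-coding transcripts in pool 1 and 15.1 TPM in pool 2, below Atg101, whose TPM was all protein-coding. The adaptor gene Atg13 had 11.7 TPM in pool 1 and 12.0 TPM in pool 2. The kinase genes were the lowest of the complex, with Ulk2 at 8.06 and 7.29 TPM in pools 1 and 2 and Ulk1 at 5.96 and 5.52 TPM, from 605 and 710 counts for Ulk1. Ulk2 made up 57.2% of the pair's TPM. Of its protein-coding TPM it made up 50.8% in pool 1 and 45.4% in pool 2, so on that scale the higher paralog differed between pools.

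The class III PI3-kinase complex, which makes PI3P on the forming membrane, was led by Becn1. Becn1 encodes its regulatory subunit Beclin 1 and had 65.4 TPM in pool 1 and 59.3 TPM in pool 2, from 2124 and 2505 counts. The catalytic subunit gene Pik3c3 (VPS34) had 10.8 and 9.01 TPM in pools 1 and 2, from 668 and 710 counts. Becn1 was therefore several times above its catalytic partner by all TPM. Most of the Becn1 TPM was, however, assigned to Becn1-201, a transcript annotated for nonsense-mediated decay, at 54.8% in pool 1 and 54.4% in pool 2, and 26.8% in pool 1 and 29.98% in pool 2 were in protein-coding transcripts. These came to 17.5 TPM in pool 1 and 17.8 TPM in pool 2, and those of Pik3c3 to 7.58 and 6.92 TPM. Pik3r4 (VPS15), a regulatory subunit, had 5.02 TPM in pool 1 and 4.05 TPM in pool 2. Atg14, which directs the complex to autophagosome formation, had 6.20 and 5.42 TPM in pools 1 and 2, and Uvrag, the alternative subunit linked to endosomes, had 8.20 and 8.58 TPM. Uvrag was above Atg14 in both pools. Ambra1, a Beclin 1 binding regulator, was the lowest of the group at 1.58 TPM in pool 1 and 1.62 TPM in pool 2, from 141 and 168 counts.

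Among genes for membrane supply and PI3P effectors, the PI3P-binding WIPI proteins were the highest. Wdr45 (WIPI4), the gene of a human neurodegeneration with brain iron accumulation, had 14.9 TPM in pool 1 and 20.7 TPM in pool 2, from 410 and 753 counts. Wipi1 had 17.5 and 11.9 TPM in pools 1 and 2, from 809 and 705 counts, and so led in pool 1 while Wdr45 led in pool 2. Wipi2, which recruits ATG16L1, had 14.0 TPM in pool 1 and 11.2 TPM in pool 2. The fourth paralog, Wdr45b (WIPI3), is not among the 40 genes, and at 25.2 TPM in pool 1 and 26.3 TPM in pool 2 it was above each of them. The lipid transfer gene Atg2b had 12.2 TPM in pool 1 and 9.17 TPM in pool 2. Its paralog Atg2a had 2.56 TPM in pool 1 and 2.40 TPM in pool 2. Atg2b took 81.0% ± 2.43 (SD, n = 2) of the pair. For the scramblases, Atg9a took 97.8% ± 0.23 (SD, n = 2) of the pair with Atg9b.

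The conjugation machinery was detected in full, 11 of 11 genes, from 4.63 to 38.7 TPM by mean. Atg3, the E2-like enzyme that transfers ATG8 proteins to lipid, was the highest with 43.0 TPM in pool 1 and 34.4 TPM in pool 2, from 1673 and 1697 counts. The ubiquitin-like Atg12 had 35.1 and 28.8 TPM in pools 1 and 2, from 1668 and 1737 counts. The E1-like Atg7, which activates both ATG12 and the ATG8 proteins, was the lowest by all TPM. It had 4.48 TPM in pool 1 and 4.78 TPM in pool 2, from 236 and 348 counts. The E1 gene was thus lower than the genes of both its E2 partners. Atg10, the E2-like enzyme for ATG12, had 27.5 TPM in pool 1 and 25.2 TPM in pool 2. Atg5, the target of ATG12, had 28.9 and 25.7 TPM in pools 1 and 2. Atg16l1, which places the ATG12-ATG5 conjugate on the membrane, had 12.8 TPM in pool 1 and 15.1 TPM in pool 2. Its paralog Atg16l2 had 6.0 and 9.81 TPM in pools 1 and 2. Atg16l1 took 64.4% ± 5.35 (SD, n = 2) of the pair by all TPM and 89.1% by protein-coding TPM. By protein-coding TPM Atg16l2 was the lowest of the 11 genes, with 1.16 and 1.58 TPM in pools 1 and 2, below Atg7 with 2.93 and 3.86 TPM.

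The ATG4 proteases prime the ATG8 proteins and release them from lipid. Atg4b, the most active of them on LC3, had 28.9 TPM in pool 1 and 28.1 TPM in pool 2. Atg4c had 16.6 and 11.5 TPM, Atg4a 7.52 and 4.94 TPM, and Atg4d 6.60 and 8.35 TPM in pools 1 and 2. By all TPM, Atg4b made up 50.8% ± 3.26 (SD, n = 2) of the family. By protein-coding TPM, Atg4c led in pool 1 with 43.8% against 27.7% for Atg4b, and in pool 2 they were level at 33.3% for Atg4c and 33.5% for Atg4b. Transcripts annotated for nonsense-mediated decay held much of the TPM of Atg4b. Atg4b-204, of this class and of 919 nt, held 39.1% of the gene's TPM in pool 1 and 32.4% in pool 2. By counts the protein-coding Atg4b-201, of 4173 nt, led in both pools. It had 821 and 1120 counts in pools 1 and 2, against 184 and 188 for Atg4b-204.

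Of the cargo receptors and adaptors, Sqstm1 was the highest. It encodes p62, which links ubiquitinated cargo to ATG8 proteins, and had 126 TPM in pool 1 and 169 TPM in pool 2, from 3962 and 7364 counts. Nbr1, a related receptor, had 35.8 and 26.4 TPM in pools 1 and 2, from 2419 and 2246 counts. Sqstm1 was lower and Nbr1 higher in pool 1, both within 1.5-fold. Wdfy3 (ALFY), a large adaptor for aggregates, had 19.2 TPM in pool 1 and 15.4 TPM in pool 2. Optn, a receptor for mitochondria and aggregates and a human amyotrophic lateral sclerosis gene, had 18.8 and 15.3 TPM in pools 1 and 2, from 841 and 937 counts, and was the lowest by all TPM. By protein-coding TPM the lowest was Wdfy3, with 6.03 TPM in pool 1 and 4.54 TPM in pool 2, since most of its TPM was in a transcript of 836 nt that the annotation used here does not hold.

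Epg5, the tethering factor for fusion of autophagosomes with lysosomes, was low, with 2.10 TPM in pool 1 and 1.05 TPM in pool 2, from 398 and 253 counts over a transcript of 9672 nt. Tfeb was below detection, as given above. Of the MiT-TFE transcription factors, to which Tfeb belongs, Tfe3 made up 54.9% ± 8.82 and Mitf 38.2% ± 6.24 of the family's TPM, and Tfeb 6.84% ± 2.80 (SD, n = 2 each).

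Across the pathway, 27 detected members have 2 or more annotated transcripts and 11 have 1. The same transcript led in both pools for 21 of the 27. For the other 6, Ambra1, Atg13, Atg2a, Atg4b, Rb1cc1 and Wdr45, the leading transcript differed, which is 22.2% against a background of 12.5% of protein-coding genes with 2 or more transcripts at the same level. These differences include very low counts. In Ambra1, the pool 1 leader Ambra1-205 had 79.3 counts in pool 1 and 0 in pool 2. In Atg4b the leader differed by TPM only, and by counts Atg4b-201 led in both pools. In Wdr45, Wdr45-204 had 0.29 counts in pool 1 and 413 in pool 2, and it is near in length to Wdr45-201 (1568 and 1600 nt), which had 296 and 329 counts in pools 1 and 2. Splits of this kind come from the authors' estimation and were not checked against reads.

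The share of TPM in protein-coding transcripts had a median of 77.4% in pool 1 and 77.8% in pool 2 over the 27 members. Over all protein-coding genes with 2 or more transcripts it was 93.6% in both pools. It was under 50% in both pools for 6 members, Atg16l2, Gabarapl2, Becn1, Map1lc3a, Wdfy3 and Atg4b, which is 22.2% against a background of 14.3%. For Wdfy3 this rests on the 836 nt transcript, which was counted as not protein-coding. It held 61.0% of the gene's TPM in pool 1 and 66.7% in pool 2, while the full-length Wdfy3-201 of 14274 nt held 1618 and 1613 of the gene's 1833 and 1816 counts. Atg16l2 was the lowest, with 19.3% of its TPM in protein-coding transcripts in pool 1 and 16.1% in pool 2, and 3 short retained-intron transcripts of 584 to 637 nt held most of the rest. These rest on few reads, the highest of them, Atg16l2-205, having 14.2 counts in pool 1 and 36.5 in pool 2. By counts the protein-coding Atg16l2-202 led the gene, with 45.8 in pool 1 and 78.9 in pool 2.

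**Figure D4:**
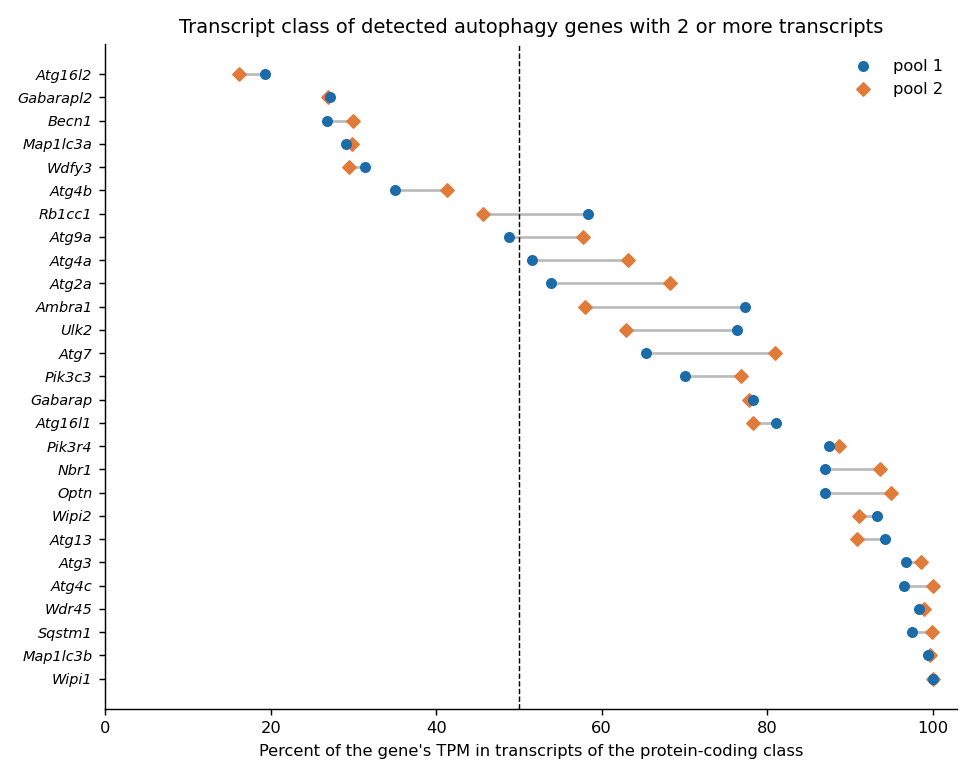
Percent of each gene's TPM in protein-coding transcripts, for the 27 detected members with 2 or more transcripts, with circles for pool 1, diamonds for pool 2 and a dashed line at 50%. Atg16l2, Gabarapl2, Becn1, Map1lc3a, Wdfy3 and Atg4b lie left of the line in both pools.

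The pools agreed closely for most members. Over the 40 genes, log2(TPM + 1) had a Pearson r of 0.990 between pools, which describes agreement across genes and not across replicates. The ratio of TPM + 1 in pool 1 over pool 2 could be compared for 38 members at a mean of 1 TPM or more. Of these, 25 were higher and 13 lower in pool 1, with a median log2 ratio of 0.12. Over 11445 protein-coding genes the median was 0.08, and 59.3% were higher in pool 1, against 65.8% of members. The SD of the log2 ratio was 0.31 over members and 0.36 over protein-coding genes. Within 1.5-fold lay 35 of the 38.

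Past 1.5-fold, 2 members were higher in pool 1, Atg9a and Epg5, beside a background of 6.24% of protein-coding genes. In the other direction was 1 member, Atg16l2, beside a background of 3.11%. These numbers are small and near the background. Atg9a had 11.5 TPM in pool 1 and 5.79 TPM in pool 2, from 508 and 352 counts (log2 ratio 0.88). On the scale of the ERCC spike-ins, described below, its ratio was 0.22, within 1.5-fold. Its 95% counting intervals, 10.5 to 12.5 TPM and 5.20 to 6.43 TPM, do not overlap. Part of its level sits in a short retained-intron transcript, Atg9a-206, which had 5.78 TPM in pool 1 and 2.45 TPM in pool 2, while the protein-coding Atg9a-201 had 3.33 and 2.15 TPM. Atg9a overlaps Ankzf1 on the other strand by 46 bases and Gm29253 on its own strand by 4287 bases in the annotation, and whether the counting used strand is not known here. Gm29253 had 0.14 TPM in pool 1 and 0.55 TPM in pool 2.

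Epg5 had intervals of 1.90 to 2.32 TPM in pool 1 and 0.925 to 1.19 TPM in pool 2, with a log2 ratio of 0.60. Atg16l2 had 4.93 to 7.23 TPM in pool 1 and 8.56 to 11.2 TPM in pool 2, with a log2 ratio of -0.63. Its counts were low, 110 in pool 1 and 223 in pool 2, and on protein-coding transcripts alone the ratio was -0.26. With a trend on length and expression removed, Epg5 (0.36) and Atg16l2 (-0.53) were within 1.5-fold, and Atg9a (0.80) was past it. On protein-coding transcripts alone the ratio of Atg9a was 0.61. On the spike-in scale Epg5 was at -0.062 and Atg16l2 at -1.29, the latter past 1.5-fold. With 1 pool a side, these ratios have no replicate check.

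The ratio moved with transcript length. Members under 1500 nt had a median log2 ratio of -0.05 (2 of 6 higher in pool 1), and those of 4000 nt or more had 0.25 (8 of 9 higher in pool 1). The protein-coding genes of the same classes had medians of -0.09 and 0.25. Spearman's rho of ratio with length was 0.41 over the 38 members and 0.40 over protein-coding genes, across genes that share the same pair of libraries. With the trend removed, the median of the members was 0.02. The ratio also depended on the scale. The ERCC spike-ins, synthetic RNAs added in known amounts, took 2.66% of TPM in pool 1 and 1.66% in pool 2, with a median log2 ratio of 0.66 over 51 spike-ins. On the spike-in scale the members' median was -0.53, so whether autophagy genes as a whole were higher or lower in pool 1 depended on the scale. That scale lowers the log2 ratio of every gene by the same 0.66. The change is therefore not particular to autophagy genes, whose median stays above that of protein-coding genes by as much as before.

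**Figure D5:**
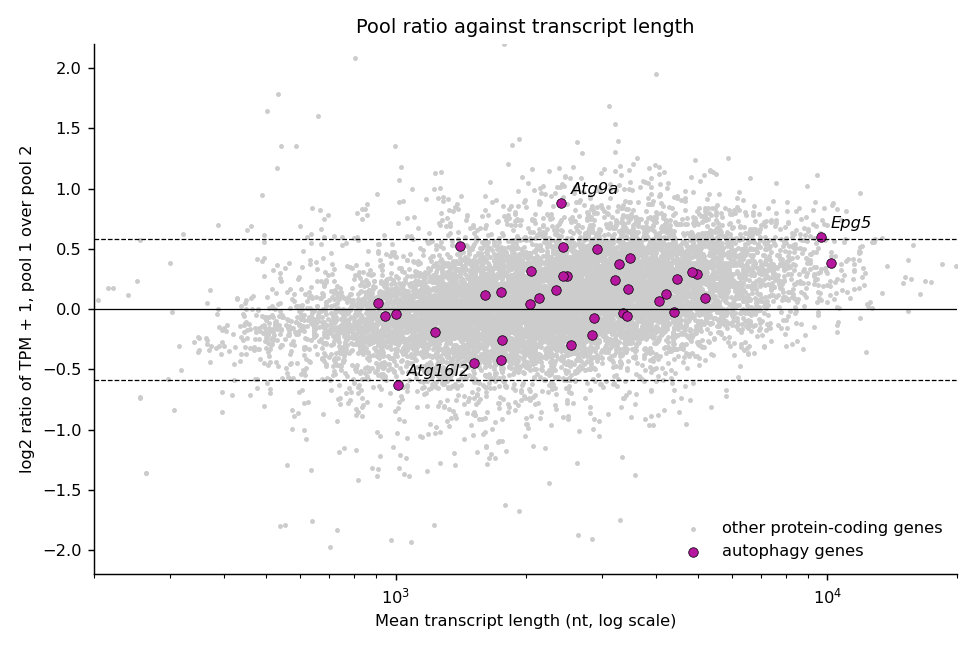
The log2 ratio of TPM + 1 (pool 1 over pool 2) against mean transcript length in nt on a log axis, for 38 autophagy genes (large points) and other protein-coding genes at 1 TPM or more (grey), with dashed lines at 1.5-fold. Atg9a and Epg5 lie above the upper line and Atg16l2 below the lower, and long genes lie higher as a whole.

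Copies and neighbours limit some values. Of 13 pseudogenes named in RefSeq as copies of members, 6 have values, which sum to 11.2 TPM in pool 1 and 6.73 TPM in pool 2. The highest, Gm6055, a Map1lc3 copy, had 6.68 and 5.05 TPM in pools 1 and 2, with 37.0 and 35.5 counts and posterior SDs of 11.2 and 11.7 counts. These are small beside the 11998 and 14698 counts of Map1lc3b in pools 1 and 2. In the annotation 10 members are overlapped by another protein-coding gene, 9 of them on the other strand. Examples are Atg16l2 with Fchsd2, Atg4b with Thap4, Atg4d with Kri1, Becn1 with Cntd1 and Sqstm1 with Mrnip. Gskip overlaps Atg2b on the other strand by 383 bases and had 85.8 and 67.5 TPM in pools 1 and 2, above Atg2b. Map1lc3b is overlapped on its own strand by Gm20388 (8400 bases), which had 2.72 TPM in pool 1 and 1.62 TPM in pool 2. Cntd1 had 0.16 TPM in pool 1 and 0.17 TPM in pool 2, and Fchsd2, which overlaps Atg16l2 by 21372 bases, had 12.0 and 8.78 TPM.

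Other genes of the pathway were also mostly present. Of 62 genes in 6 lists, 61 were detected, beside 51.7% of all protein-coding genes, with a median of the mean TPM of 17.4. Plekhm1, an adaptor for fusion with lysosomes, was the exception at 0.46 TPM in pool 1 and 0.52 TPM in pool 2. Past 1.5-fold, 2 were higher in pool 1 (background 6.24%) and 1 was lower (background 3.11%). Calcoco1, a receptor of the endoplasmic reticulum, had 8.09 TPM in pool 1 and 4.55 TPM in pool 2, and Vps41, a subunit of the HOPS tether, had 63.2 and 40.7 TPM. Rubcn (Rubicon), an inhibitor of autophagosome maturation, had 5.04 TPM in pool 1 and 8.51 TPM in pool 2. Its protein-coding transcripts went the other way, with 1.80 TPM in pool 1 and 1.25 TPM in pool 2.

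The nutrient-sensing list, 19 of 19 detected, was led by Rheb, the GTPase that activates mTORC1, with 534 TPM in pool 1 and 481 TPM in pool 2. Lamtor2, a subunit of the lysosomal Ragulator scaffold, followed with 199 and 207 TPM in pools 1 and 2. Both were far above the kinases of this list, with Mtor at 21.1 and 15.2 TPM and the AMPK catalytic subunit Prkaa1 at 5.27 and 3.71 TPM in pools 1 and 2. Of the other selective receptors, 16 of 16 were detected. Sec62, a receptor in recovery from stress of the endoplasmic reticulum, had 404 TPM in pool 1 and 447 TPM in pool 2, and the mitophagy receptor Bnip3l had 248 and 244 TPM. By all TPM both were above Sqstm1, the highest receptor of the 40 genes. By protein-coding TPM both were below it, with Sec62 at 84.7 and 78.0 TPM, Bnip3l at 36.5 and 34.6 TPM, and Sqstm1 at 123 and 169 TPM in pools 1 and 2.

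Mitophagy signalling, 5 of 5 detected, was led by the segregase Vcp, with 80.6 and 70.1 TPM in pools 1 and 2. The kinase Pink1 had 45.4 TPM in pool 1 and 57.0 TPM in pool 2. The fusion machinery, 11 of 12 detected, was led by the late endosomal GTPase Rab7 with 195 TPM in pool 1 and 162 TPM in pool 2, and the SNARE gene Vamp8 had 54.1 and 53.4 TPM. Among other core factors, 7 of 7 detected, the scramblase gene Vmp1 had 159 TPM in pool 1 and 148 TPM in pool 2, and its partner Tmem41b had 46.7 and 33.6 TPM. The C9orf72 complex, 3 of 3 detected, was low, with C9orf72 at 11.8 and 7.76 TPM and Wdr41 at 9.14 and 9.76 TPM in pools 1 and 2.

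The E-box bound by TFEB and its relatives was searched for on both strands in RefSeq promoters of GRCm38.p6, 250 bases before to 50 bases after a gene's start, which 32 members have. The 8 letters TCACGTGA, which contain the shorter motif, occurred in 1 of 32 (Atg3), or 3.12%, beside 1.12% of 27025 genes. The 6 letters CACGTG occurred in 4 of 32 (Atg14, Atg3, Atg5 and Atg7), or 12.5%, beside 8.09% of all. A match describes the letters in this window and is no sign of binding.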

How the data were processed

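Per the file headers and notes, the authors used mm10 and GENCODE M4 for both gene and transcript tables. Aligner, quantifier and strand setting are not given in the sources used here. Expected counts, as deposited, are estimates of reads and may be fractional. The deposited TPM values are per length and scaled by the authors to 1 total that includes spike-ins. Transcript shares are the percent values deposited per transcript.

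Symbols, transcript classes and exons came from GENCODE M21 on the same assembly, which left 884 genes unnamed. The tables hold 69691 entries, of which 97 are spike-ins and 26248 have numeric names and were left out. A gene counted as detected when each pool had 1 TPM or more. Ratios are log2 of TPM + 1, which understates ratios of low genes. They were also taken after removing lowess trends (span 0.3) on length and expression. Counting intervals are exact Poisson at 95%. With 1 group of 2 pools no test was run. Expected counts were rounded for edgeR 4.0.16 (TMM) and DESeq2 1.42.0 size factors in R 4.3.3, used only as alternative scales. The rest used Python 3.11.15 with statsmodels 0.14.6, scipy 1.17.1, pandas 2.3.3 and matplotlib 3.10.9, and the trend removal and intervals were tested on simulated data. All members are named by role, with counts for the 2 highest and the lowest of each role, those under 1 TPM and those past 1.5-fold. Of each list of other pathway genes, the 2 highest, those under 1 TPM and those past 1.5-fold are named, and Mtor and Prkaa1 were added after their values were seen. The members and lists were chosen with earlier results of these data known.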

Additional observations from a re-analysis of the deposited data

How the results depend on the processing

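Of 101 values recomputed under alternatives, 65 kept their direction and size and 36 changed. The number of detected members was 38 at 0.5 TPM and with either pool left out, 37 on protein-coding transcripts and 32 at 5 TPM. None of these is a change of more than 1.5 times, but from 38 of 40 a rise of that size was not possible. The median level of 14.0 TPM became 34.3 CPM with TMM and 34.3 with DESeq2 factors, units not scaled by length, 78.5 TPM as a mean, and 11.03 TPM on protein-coding transcripts, an alternative chosen after seeing the data. It lay between 11.9 and 14.4 TPM with either pool left out. The median pool ratio of 0.12 became -0.53 on the spike-in scale, a reversal, and 0.020 adjusted for length and expression. Epg5 also reversed on the spike-in scale, at -0.062, and Atg9a came within 1.5-fold there, at 0.22. Atg16l2 stayed past 1.5-fold there, at -1.29. The 3 members past 1.5-fold became 5 with TMM, 5 with DESeq2 factors, 16 on the spike-in scale, 1 with a pseudocount of 5 and 1 after adjustment. The share of all protein-coding genes past 1.5-fold was not computed under these alternatives, so these numbers show nothing particular to autophagy genes. The spike-in scale lowers the log2 ratio of every gene by the same 0.66, so its reversals are not particular to members either. By counts and by protein-coding transcripts, the share of Ulk2 in its family was 51.8% and 48.1%, of Atg2b 91.5% and 87.4%, of Atg4b 45.8% and 30.6%, of Atg9a 97.2% and 97.5%, of Atg16l1 84.4% and 89.1%, of Gabarapl2 54.7% and 37.7% among ATG8 genes and 73.7% and 52.3% among GABARAP genes, and of Map1lc3b 87.6% and 90.4% of LC3. The share of Wdr45b among WIPI genes was 32.2% by counts, below Wipi2 at 34.4%. By counts Wipi2 led in pool 1, with 36.9% against 30.1%, and Wdr45b in pool 2, with 34.3% against 31.8%. The cause of these changes was not tested, except that counts are not divided by length. Leading transcripts were not recomputed with a pool left out, since they compare both pools. No paired analysis was possible because there is a single group. Depth limits the call on Tfeb in pool 1, at 14 counts.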
